A study of Mus musculus with 24 samples.

Results

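The Bcl2 family apoptosis regulators considered here were 10 genes: the pro-survival Bcl2, Bcl2l1 and Mcl1, the effector Bak1, and the BH3-only genes Bcl2l11, Bid, Bad, Bmf, Bik and Hrk. They were found on the array through the RefSeq transcript that the design gives for each probe, which led to 20 of the 56605 probes and to 10 of the 23787 genes named in this way. Of these, 18 probes of 9 genes were among the 37687 probes bright enough to be tested, and both Hrk probes were not. The mapping of probes to genes used no measured value, but the members were chosen with earlier results of these data known.

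Proteins of this family control the permeability of the outer mitochondrial membrane. Pro-survival members bind and hold back the effectors Bax and Bak1, which otherwise form pores that release cytochrome c and start the caspase cascade, and BH3-only members sense stress and either block the pro-survival proteins or activate the effectors directly. Many members are regulated by transcription, others by cleavage, phosphorylation or turnover, which an expression array does not measure.

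TM3 is an established mouse line labelled as Leydig cells, the testosterone-producing interstitial cells of the testis. Cells were washed, suspended in binding buffer and filled into cuvettes, and were then either sham-exposed (S) or given a nanosecond pulsed electric field (nsPEF, E) of 80 pulses, each 60 ns long, at 14 kV/cm. RNA was taken 0, 4 or 24 h later, which gave 6 groups (S0, E0, S4, E4, S24 and E24) of 4 samples each, one array per sample. All groups came from the same unmodified line and shared the harvest and suspension step, so a change with time in sham cells cannot be told apart from recovery from handling, and no unhandled cells were among the samples. The samples of a group are called biological replicates of 1 line by the study, and p-values measure the spread between them.

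The signal given below is the log2 of the processed probe intensity minus the 75th percentile of the array, so that 0 is the brightness of that percentile and a difference of 1 is a doubling. The 75th percentile lay between 300.3 and 787 intensity units. The share of probes well above background was 57.5 to 62.1% on the sham arrays and 51.2 to 57.2% on the nsPEF arrays, with no overlap, and differences between nsPEF and sham arrays followed the row of the spot on the array. The part of these properties in the nsPEF results was not tested. Each slide carried the 8 arrays of a single time point, with nsPEF arrays always in its second row, so time and slide, and exposure and array position, cannot be told apart. In bulk RNA, fewer cells of a kind and less RNA per cell cannot be told apart either. Of the Leydig cell markers, Nr5a1, Star and Cyp17a1 were well above background on all 24 arrays and Lhcgr, Cyp11a1, Hsd3b1 and Hsd17b3 on none, whereas the mesenchymal markers Pdgfra, Vim and Col1a1 were so on all 24.

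The first comparison asked how the family changed with time after handling. At 4 h, sham cells had more Bid, Mcl1 and Bcl2l1 RNA and less Bmf and Bad RNA than at 0 h, with Bmf 6.85-fold lower and Bid 2.58-fold higher. The Bik probe passed the brightness filter only through S4, so it is left out of the counts over time and described on its own below. Of the 17 other probes, 9 rose and 3 fell between 0 and 4 h, where 29% of all tested probes rose and 30.3% fell. The median log2 difference was 0.27 over the 17 probes and -0.01 over all tested probes. By gene, 4 had only higher probes, 2 only lower probes, Bcl2 had one of each and Bak1 had none called. After nsPEF the counts of the 17 probes from 0 to 4 h were 10 higher and 3 lower, against 32.8% and 28.4% of all probes.

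Most of these changes had receded by 24 h. Between 4 and 24 h, 3 sham probes rose and 7 fell, against 29% and 28.6% of all tested probes, and the nsPEF groups gave the same counts against 28.4% and 28.3%. From 0 to 24 h, 4 sham probes were higher and 2 lower, against 18.1% and 18.6% of all probes, and 7 nsPEF probes were higher and 1 lower, against 24.1% and 18.3%. Comparisons that share a time point share its arrays. Directions that involve 24 h depend on the scaling: scaling the arrays on spike-in RNA, which shifts the median of all tested probes from 0 to 24 h by 0.68 in sham and 0.48 in nsPEF cells, turned the sign of 19 member differences that were called under either scaling, each given with its gene below or with the processing alternatives. Relative to all probes on the same arrays, the differences are those given here.

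**Figure D1:**
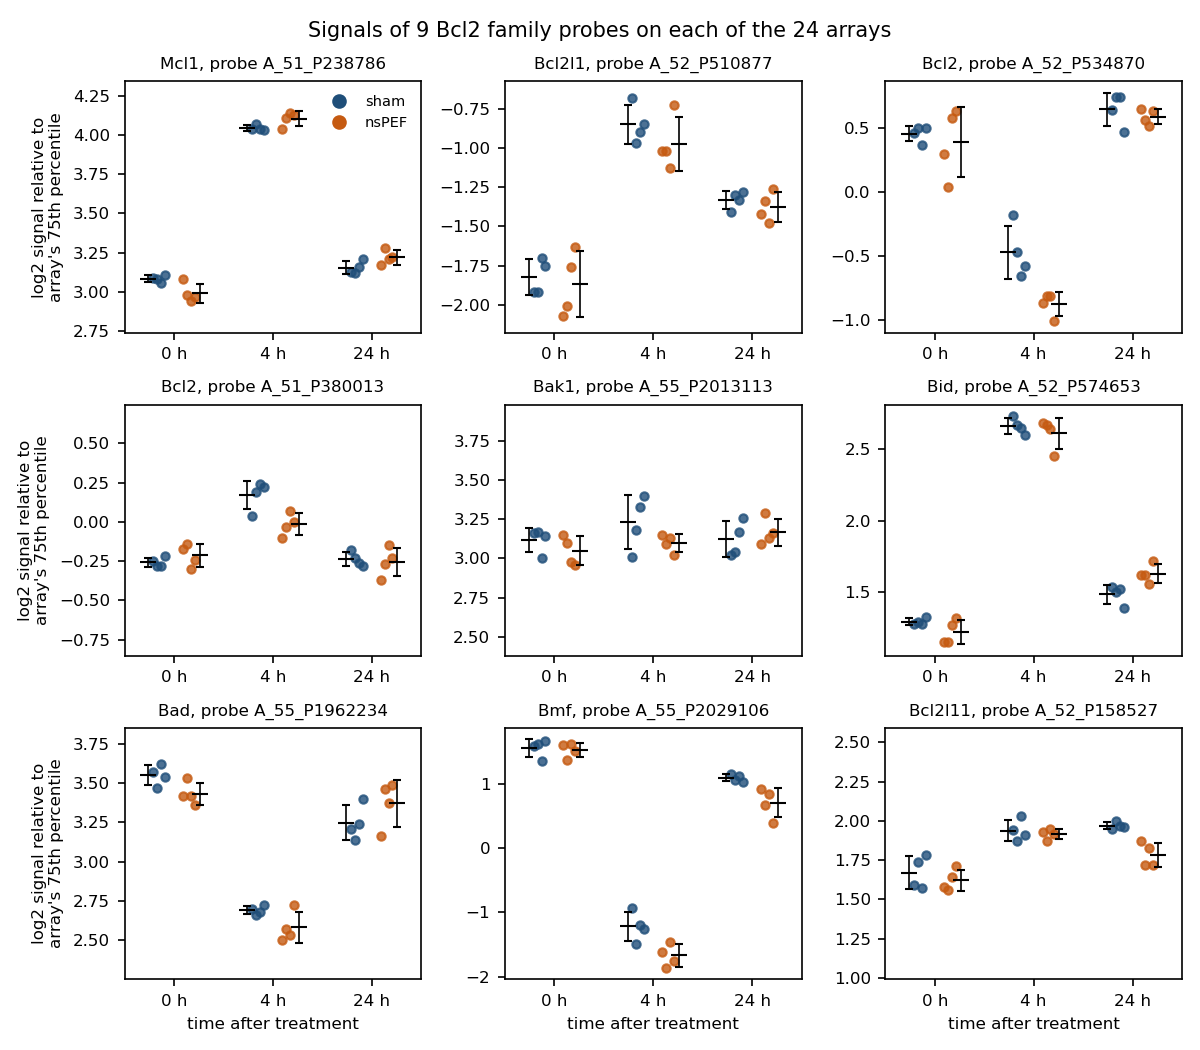
Signal (log2 of processed intensity minus the 75th percentile of the array) of 9 member probes on every array, by time, with 4 sham and 4 nsPEF arrays a time point, points for arrays and bars for mean ± SD. The 4 h points of Mcl1 and Bid lie above, and those of Bmf, Bad and Bcl2 probe A_52_P534870 below, all points at 0 and 24 h.

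Mcl1 encodes a short-lived pro-survival protein that binds Bak1 and several BH3-only proteins. Its signal was 3.09, 3.08, 3.06 and 3.11 in S0 and 4.04, 4.07, 4.04 and 4.03 in S4, and returned to 3.13, 3.12, 3.16 and 3.21 in S24. After nsPEF it was 3.08, 2.98, 2.94 and 2.97 in E0, 4.04, 4.11, 4.14 and 4.13 in E4 and 3.17, 3.28, 3.21 and 3.22 in E24. The 8 arrays at 4 h stood above all 16 others, and the groups of one time point overlapped. The rise by 4 h was 0.96 ± 0.040 (SE; adjusted p = 3.07e-14) in sham and 1.11 ± 0.040 (SE; adjusted p = 2.93e-15) in nsPEF cells, or 1.95-fold and 2.16-fold, and the decline from 4 to 24 h was -0.89 and -0.89. From 0 to 24 h the difference was 0.23 ± 0.040 (SE; adjusted p = 0.000133) in nsPEF cells and 0.07 (adjusted p = 0.188) in sham cells. In sham cells every S24 array lay above every S0 array, and the difference was called in 4 of 14 other settings. The change of the nsPEF effect from 0 to 24 h was not called by limma (0.16, adjusted p = 0.185), so no difference between the arms was shown.

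Bcl2l1, whose main protein Bcl-xL guards mitochondria, had 5 probes. Of these, 3 rose by 4 h in both arms, and the other two gave no call in sham cells. Probe A_55_P1974877, assigned to the transcript NM_001355053, moved from 4.54, 4.48, 4.36 and 4.57 in S0 to 4.78, 4.81, 4.74 and 4.74 in S4 and stayed at 4.64, 4.62, 4.62 and 4.58 in S24. The S4 arrays lay above all S0 arrays, with a difference of 0.28 ± 0.051 (SE; adjusted p = 7e-05). The rises of A_66_P122989 and A_52_P510877 were 0.49 (adjusted p = 3.22e-05) and 0.97 (adjusted p = 3.01e-08). In nsPEF cells the 3 probes rose by 0.47, 0.67 and 0.89. They remained above 0 h at 24 h after nsPEF, by 0.42 (adjusted p = 1.79e-06), 0.60 (adjusted p = 8.56e-06) and 0.49 (adjusted p = 0.000417). In sham cells the latter pair was also above 0 h, by 0.31 and 0.49, and the first was not called (0.13, adjusted p = 0.0511), though it was in 9 of 14 other settings. From 4 to 24 h in sham cells A_55_P1974877 fell by 0.15 and A_52_P510877 by 0.48 under the 75th percentile, and both differences were above 0 with spike-in scaling (0.48 and 0.15), the first also with quantile normalization (0.06).

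The dimmer Bcl2l1 probes were less clear. Probe A_51_P299454 differed by 0.21 (adjusted p = 0.448) in sham cells, and 1 array in each of the S0 and E0 groups, at -1.33 and -0.88, stood well above the rest of its group. Without the S0 array (replicate 4) the sham difference was 0.42 (adjusted p = 0.0978), and without the E0 array (replicate 4) the nsPEF difference of 0.12 became 0.42 and was called (adjusted p = 0.0343). Probe A_55_P2500448 gave 0.21 (adjusted p = 0.386) in sham cells, where S0 replicate 1 read -1.87 against -3.34 to -2.84 on the rest of S0, and 0.50 (adjusted p = 0.00191) without that array and 0.01 without S0 replicate 2. It gave 0.47 (adjusted p = 0.0466) in nsPEF cells. That call was lost when either of 2 arrays of E0 or of 3 arrays of E4 was left out, with adjusted p between 0.0662 and 0.132, and for 14 arrays of the other groups, left out singly, adjusted p lay between 0.0503 and 0.0535. It was also lost under 7 of 14 other settings, with differences of 0.20 to 0.47 and adjusted p of 0.0546 to 0.157.

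Bcl2, the founding pro-survival gene, was read by 2 probes assigned to different transcripts, and they moved in opposite directions. Probe A_52_P534870 (transcript NM_009741) read 0.46, 0.50, 0.37 and 0.50 in S0 and -0.18, -0.47, -0.66 and -0.58 in S4, a fall of 0.93 ± 0.11 (SE; adjusted p = 3.64e-07). In E4 it read -0.87, -0.81, -0.81 and -1.01, a fall of 1.27 from E0. All S4 and E4 arrays lay below all arrays of the other groups, and by 24 h it had risen again by 1.12 in sham and 1.47 in nsPEF cells. Probe A_51_P380013 (transcript NM_177410) read -0.25, -0.28, -0.28 and -0.22 in S0 and 0.04, 0.19, 0.24 and 0.22 in S4, a rise of 0.43 ± 0.054 (SE; adjusted p = 7.66e-07). Its S4 arrays lay above all S0 arrays, and its rise after nsPEF was 0.19 (adjusted p = 0.00429). Over the 24 arrays the Pearson correlation of the 2 probes was -0.81, given as a description, since arrays of a group share their treatment. The later fall of A_51_P380013, -0.41 in sham and -0.24 in nsPEF cells from 4 to 24 h, turned into a rise of 0.22 and 0.14 with spike-in scaling. No single direction can therefore be given for Bcl2.

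**Figure D2:**
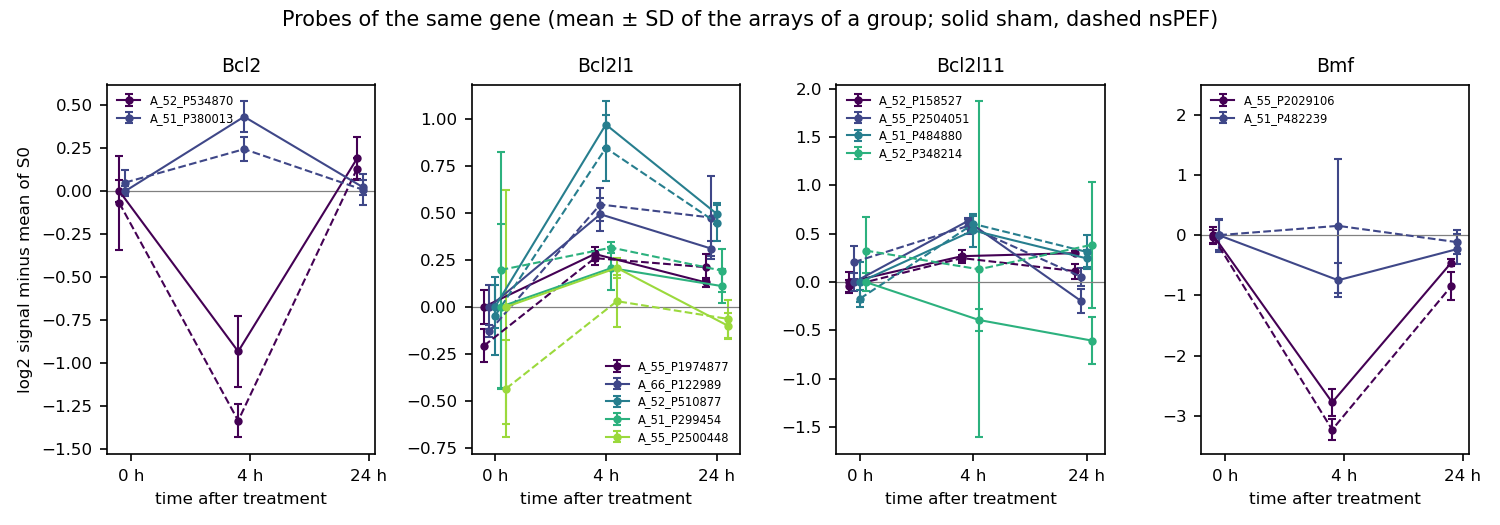
Mean ± SD of the log2 signal, set to 0 at the S0 mean of the probe, at 0, 4 and 24 h for each probe of the genes with several tested probes, with sham solid and nsPEF dashed. Each point is the mean of 4 arrays, or of 3 for Bcl2l11 probe A_52_P348214 in E4 and E24, and the 2 Bcl2 probes move apart at 4 h.

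Bak1 encodes the pore-forming effector that sits on mitochondria of healthy cells. Its signal stayed between 2.96 and 3.40 on the 24 arrays, with group means from 3.05 (E0) to 3.23 (S4). No time contrast was called for it. The sham difference from 0 to 4 h was 0.11 ± 0.078 (SE; adjusted p = 0.241). It was 0.18 and called without S4 replicate 1 (adjusted p = 0.0412), as was that from 4 to 24 h (-0.18, adjusted p = 0.0462), and with spike-in scaling its 24 h signal exceeded that at 4 h in sham cells by 0.52 (against -0.11 relative to the 75th percentile).

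Bmf and Bid had the member differences of largest size from 0 to 4 h among probes well above background on every array. The 250 bases upstream of their RefSeq start sites and of that of Mcl1 are shown because the signals of these 3 genes were correlated over the arrays, with Bmf opposite in sign to Bid and Mcl1. They lie at chr2:118549687-118549936 (minus strand, the most upstream of 3 Bmf starts), chr6:120916825-120917074 (minus strand) and chr3:95658471-95658720 (plus strand) of GRCm38.p6 and are written 5′ to 3′ in the sense of the gene. Capitals mark GGGCGG, the core of the GC box, on either strand.
Bmf: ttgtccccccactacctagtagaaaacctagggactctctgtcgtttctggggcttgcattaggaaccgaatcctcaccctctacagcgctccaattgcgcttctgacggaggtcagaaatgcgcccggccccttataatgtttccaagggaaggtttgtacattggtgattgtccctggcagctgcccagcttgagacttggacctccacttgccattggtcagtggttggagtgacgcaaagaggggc
Bid: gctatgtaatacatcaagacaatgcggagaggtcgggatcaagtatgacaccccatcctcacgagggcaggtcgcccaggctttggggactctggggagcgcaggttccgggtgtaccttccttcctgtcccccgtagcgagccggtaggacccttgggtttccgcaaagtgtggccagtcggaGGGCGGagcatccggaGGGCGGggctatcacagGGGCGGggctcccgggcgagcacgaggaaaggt
Mcl1: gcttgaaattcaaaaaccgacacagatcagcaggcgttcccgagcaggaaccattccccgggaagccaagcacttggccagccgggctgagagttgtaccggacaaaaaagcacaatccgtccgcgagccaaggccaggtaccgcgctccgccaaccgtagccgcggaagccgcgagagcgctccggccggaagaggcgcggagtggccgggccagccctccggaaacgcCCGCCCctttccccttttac

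GGGCGG occurred 3 times in the Bid window, 1 time in that of Mcl1 and not in that of Bmf. The 250 bases before each start were searched on both strands for GGGCGG, TGACGTCA (the cAMP response element) and TGACTCA (the AP-1 site). They were also searched for GTAAACA (the core of the FoxO and other forkhead sites) and CACGTG (the E-box). There were 15 windows for 9 members, and Bik had no entry in the table. GGGCGG was in 7 of the 15 windows, of 6 genes, against 32.7% of all 32851 windows, and GTAAACA was in 1, of Bcl2l11, against 3.17%. The other motifs, present in 1.55% (TGACGTCA), 4.46% (TGACTCA) and 6.02% (CACGTG) of all windows, were in none of the 15. A match of letters is not a bound site.

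Bmf, a BH3-only gene whose protein is held at the actomyosin cytoskeleton and is known for cell death after loss of attachment, showed the largest change of the 10 members. Probe A_55_P2029106 read 1.59, 1.62, 1.36 and 1.67 in S0 and -0.93, -1.49, -1.19 and -1.26 in S4, and 1.16, 1.07, 1.13 and 1.04 in S24. In nsPEF cells it read 1.61, 1.38, 1.62 and 1.51 in E0, -1.61, -1.86, -1.46 and -1.75 in E4 and 0.93, 0.68, 0.84 and 0.40 in E24. The signals at 4 h lay below those of every other group, and those at 24 h lay below those at 0 h in both arms. The difference from 0 to 4 h was -2.78 ± 0.12 (SE; adjusted p = 4.8e-14) in sham and -3.20 ± 0.12 (SE; adjusted p = 4.86e-15) in nsPEF cells, or 6.85-fold and 9.21-fold lower. At 24 h the deficit was -0.46 (adjusted p = 0.00458) in sham cells, which became 0.22 with spike-in scaling, and -0.82 (adjusted p = 1.41e-05) after nsPEF. The second Bmf probe A_51_P482239, assigned to the same transcript, was much dimmer and gave -0.75 (adjusted p = 0.0729) in sham and 0.15 (adjusted p = 0.723) in nsPEF cells. The latter value rests on E4 replicate 3, which read -1.50 against -4.05 to -3.26 on the rest of E4. Without that array it was -0.38 (adjusted p = 0.118), and the sham difference passed the threshold (adjusted p = 0.00208).

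Bid links death receptors to mitochondria once caspase 8 has cut its protein. Its signal was 1.28, 1.29, 1.28 and 1.33 in S0, 2.73, 2.67, 2.65 and 2.60 in S4 and 1.54, 1.50, 1.52 and 1.39 in S24. In nsPEF cells it was 1.15, 1.15, 1.27 and 1.32 in E0, 2.68, 2.67, 2.64 and 2.45 in E4 and 1.62, 1.62, 1.56 and 1.72 in E24. The arrays at 4 h stood above all others without overlap, and those at 24 h above those at 0 h in each arm. The rise by 4 h was 1.37 ± 0.057 (SE; adjusted p = 3.47e-14) in sham and 1.39 ± 0.057 (SE; adjusted p = 2.59e-14) in nsPEF cells. At 24 h 0.20 (adjusted p = 0.0108) was left in sham and 0.40 (adjusted p = 1.08e-05) in nsPEF cells, and the sham call was lost with normexp background correction (adjusted p = 0.074) and with arrays centred by spot row (0.0617).

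Bad, whose protein is switched off by phosphorylation downstream of growth factors, moved the other way. It read 3.57, 3.47, 3.62 and 3.54 in S0, 2.70, 2.66, 2.68 and 2.72 in S4 and 3.21, 3.14, 3.24 and 3.40 in S24. In nsPEF cells it read 3.42, 3.53, 3.42 and 3.36 in E0, 2.50, 2.57, 2.53 and 2.72 in E4 and 3.16, 3.46, 3.37 and 3.49 in E24. All arrays at 4 h lay below all arrays at 0 and 24 h. The difference from 0 to 4 h was -0.86 ± 0.069 (SE; adjusted p = 9.93e-10) in sham and -0.85 ± 0.069 (SE; adjusted p = 1.18e-09) in nsPEF cells, 1.82-fold and 1.8-fold lower. From 0 to 24 h it was -0.30 (adjusted p = 0.00179) in sham and -0.06 (adjusted p = 0.506) in nsPEF cells, and these values became 0.38 and 0.42 with spike-in scaling.

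Bcl2l11 encodes Bim, which can activate Bax and Bak1 directly, and was read by 4 probes. Of these, 3 rose by 4 h in both arms. The brightest, A_52_P158527, read 1.59, 1.74, 1.57 and 1.78 in S0, 1.94, 1.87, 2.03 and 1.91 in S4 and 1.95, 2.00, 1.97 and 1.96 in S24, so the S4 and S24 arrays stood above all S0 arrays. Its sham differences from 0 h were 0.27 ± 0.053 (SE; adjusted p = 0.000191) at 4 h and 0.30 ± 0.053 (SE; adjusted p = 0.000164) at 24 h. In nsPEF cells they were 0.29 (adjusted p = 7.22e-05) and 0.16 (adjusted p = 0.0215). That nsPEF call at 24 h held in 11 of 14 other settings and 21 of 28 fits with arrays left out. Probe A_55_P2504051 rose by 0.63 (adjusted p = 5.79e-07) in sham and 0.37 (adjusted p = 0.000324) in nsPEF cells at 4 h. Its 24 h signal did not pass the test against 0 h in either arm (-0.20 and -0.15, against 0.49 and 0.32 with spike-in scaling), though the sham difference was called in 7 of 14 other settings. Probe A_51_P484880 rose by 0.53 (adjusted p = 0.000131) and 0.77 (adjusted p = 1.39e-06), and its fall of 0.29 from 4 to 24 h in each arm became 0.34 in sham and 0.09 in nsPEF cells with spike-in scaling. The call of that fall was lost in sham cells without S4 replicate 3 or 4 or S24 replicate 1 or 2 (adjusted p between 0.0514 and 0.0705) and in nsPEF cells without replicate 1 of E4 (0.0618) or of E24 (0.0868). It was also lost in sham cells with the percentile over detected probes (-0.15, adjusted p = 0.209) and normexp (0.101) and in nsPEF cells with that percentile (-0.18, 0.133) and array weights (0.0641). The dimmest, A_52_P348214, had 1 spot left out as marked in each of E4 and E24, was below the brightness limit on 1 further array, and gave no call (-0.39, adjusted p = 0.497, in sham from 0 to 4 h). Its nsPEF difference from 0 to 4 h, -0.19, became -1.20 (adjusted p = 0.000752) without E4 replicate 1.

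Bik and Hrk are BH3-only genes with narrow tissue expression. The Bik probe was well above background on 2 arrays, both in S4, where it read -4.65, -7.18, -7.13 and -5.30. The S0 arrays were at -6.98, -7.83, -7.65 and -6.65 and overlapped S4. The difference was 1.21 ± 0.48 (SE), and -0.19 with another background correction. Since the probe entered the test only through S4, the group in which it was brightest, its difference is given as a description, without a fold or a test. The 2 Hrk probes were well above background on 1 and 0 arrays and were not tested.

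**Figure D3:**
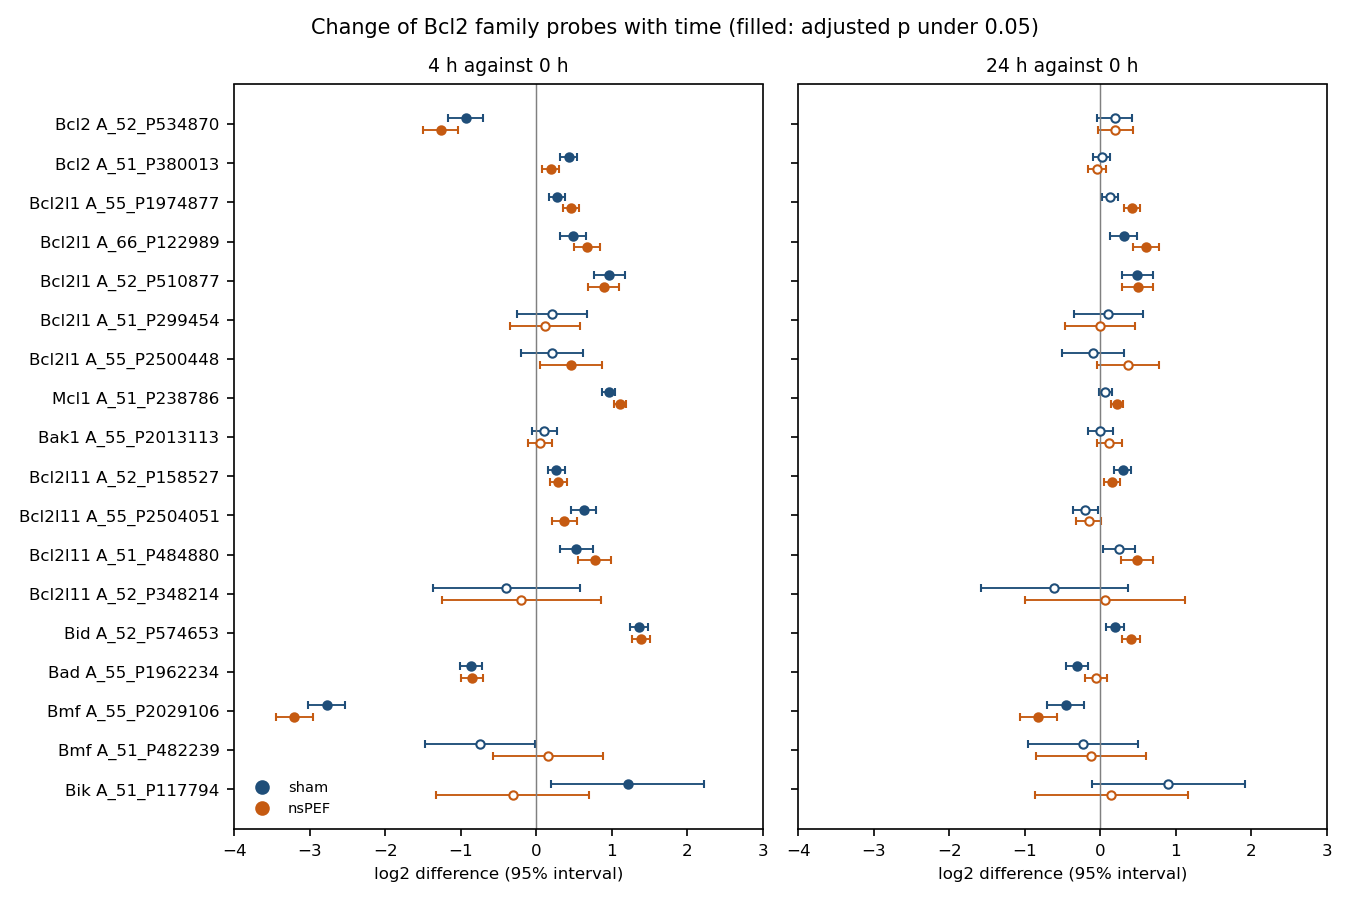
Log2 difference with 95% confidence interval of each tested member probe from 0 to 4 h and from 0 to 24 h, in sham and nsPEF cells (limma over 24 arrays, 75th percentile scaling). The vertical line marks no difference, the Bmf probe A_55_P2029106 is farthest to the left at 4 h with -2.78 in sham and -3.20 in nsPEF cells, and with spike-in scaling several 24 h differences change sign, as given in the text. The filled Bik point in sham cells at 4 h belongs to a probe that was tested only because of S4.

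The second comparison, nsPEF against sham at the same time, concerned the exposure itself. At 0 h no member probe was called by limma in either direction, where 0.0557% of all tested probes were higher and 0.0478% lower. Bik, which passed the filter only through S4, is left out of the next counts and medians. Of the other 17 probes, 4 had an unadjusted p under 0.05, against 9.6% of all probes. The plain analysis of variance called 0, against 0.0451%. At 4 h 0 were higher and 1 lower, against 1.74% in each direction, and at 24 h 0 were higher and 1 lower, against 2.49% and 2.78%. Again 4 of the 17 probes had an unadjusted p under 0.05 at each of these times, as had 21.3% and 22.2% of all probes, which is about the same share. The median log2 differences of the 17 probes were -0.07, -0.05 and 0.07 at 0, 4 and 24 h, against -0.02, 0.01 and 0.01 over all tested probes. The split of calls at 4 h over all probes, 656 higher and 656 lower, became 6240 and 71 with spike-in scaling and 367 and 1862 with quantile normalization, so it rests on the scaling.

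The single probe called at 4 h was Bmf A_55_P2029106, in spot row 153 of 384. The E4 arrays read -1.61, -1.86, -1.46 and -1.75 against -0.93, -1.49, -1.19 and -1.26 in S4, and the groups overlapped by 1 array each. The difference was -0.46 ± 0.12 (SE; adjusted p = 0.0388), and the exact two-sided permutation test over 4 against 4 arrays gave p = 0.0571, where the smallest p possible is 0.0286. The call was lost without S4 replicate 1 (-0.36, adjusted p = 0.116), 3 (-0.44, 0.0768) or 4 (-0.47, 0.0553) and without E4 replicate 2 (-0.39, 0.0866) or 4 (-0.43, 0.0884), and under 5 of 14 other settings. At 24 h the same probe read 0.93, 0.68, 0.84 and 0.40 in E24 and 1.16, 1.07, 1.13 and 1.04 in S24 without overlap, a difference of -0.39 ± 0.12 (SE; adjusted p = 0.0575), which did not pass the threshold but did in 4 of 14 other settings and in 3 of 28 fits with arrays left out. The second Bmf probe differed by 0.90 (adjusted p = 0.145) at 4 h and 0.12 (adjusted p = 0.869) at 24 h, in the opposite direction, and by 0.37 at 4 h without E4 replicate 3 (adjusted p = 0.366).

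At 24 h the called probe was Bcl2l11 A_52_P158527, in spot row 208. It read 1.87, 1.72, 1.83 and 1.72 in E24 and 1.95, 2.00, 1.97 and 1.96 in S24, which did not overlap. The difference was -0.19 ± 0.053 (SE; adjusted p = 0.0467), and the exact permutation test gave the smallest possible p of 0.0286. The call held in 9 of 28 fits with an array or a replicate number left out and in 6 of 14 other settings. Leaving out any array of S24 ended it (adjusted p 0.0591 to 0.122), as did leaving out E24 replicate 2 (0.144), 3 (0.0522) or 4 (0.14), and leaving out any of 8 arrays of the other groups gave 0.0517 to 0.0558, while the difference stayed between -0.24 and -0.15 in all of these fits and settings. The other Bcl2l11 probes differed from sham at 24 h upward without a call, A_55_P2504051 (spot row 1) by 0.25 (adjusted p = 0.0645, called in 3 of 14 other settings), A_51_P484880 by 0.07 (adjusted p = 0.724) and A_52_P348214 (spot row 9) by 0.99 (adjusted p = 0.254). The probes of this gene thus gave no common direction.

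The other members did not pass the threshold, though the Bcl2 probes came close to it. For the Bcl2 probes nsPEF minus sham at 4 h was, for A_52_P534870 (spot row 351), -0.40 ± 0.11 (SE; adjusted p = 0.0506) with no overlap between E4 and S4, and, for A_51_P380013 (row 162), -0.19 ± 0.054 (SE; adjusted p = 0.0592). The first was called in 6 of 14 other settings (lowest adjusted p = 0.0176) and 4 of 28 fits with arrays left out, the latter in 4 and 2 of them. For Bid it was at 24 h 0.14 ± 0.057 (SE; adjusted p = 0.151), with every E24 array above every S24 array. Bcl2l1 A_55_P1974877 differed at 0 h by -0.21 ± 0.051 (SE; adjusted p = 0.127), again without overlap, read 4.32, 4.15, 4.32 and 4.33 in E0 and was called in 2 of 14 other settings. Mcl1 differed by -0.09, 0.06 and 0.06 at 0, 4 and 24 h (adjusted p = 0.439, 0.401 and 0.349), with a 95% confidence interval of -0.02 to 0.14 at 4 h. For Bak1 the interval at 4 h was -0.29 to 0.03 and for Bad -0.25 to 0.04.

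Whether the nsPEF effect differed between the time points was tested as an interaction. No member probe was called by limma, against 0.361% of all tested probes, and 0 by the plain analysis of variance, against 0.597%. An unadjusted p under 0.05 was found for 7 of the 18 probes, Bik not among them, against 16.4% of all probes. The smallest adjusted p was 0.116, for Bcl2l1 A_55_P1974877, whose nsPEF differences at 0, 4 and 24 h were -0.21, -0.02 and 0.08.

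**Figure D4:**
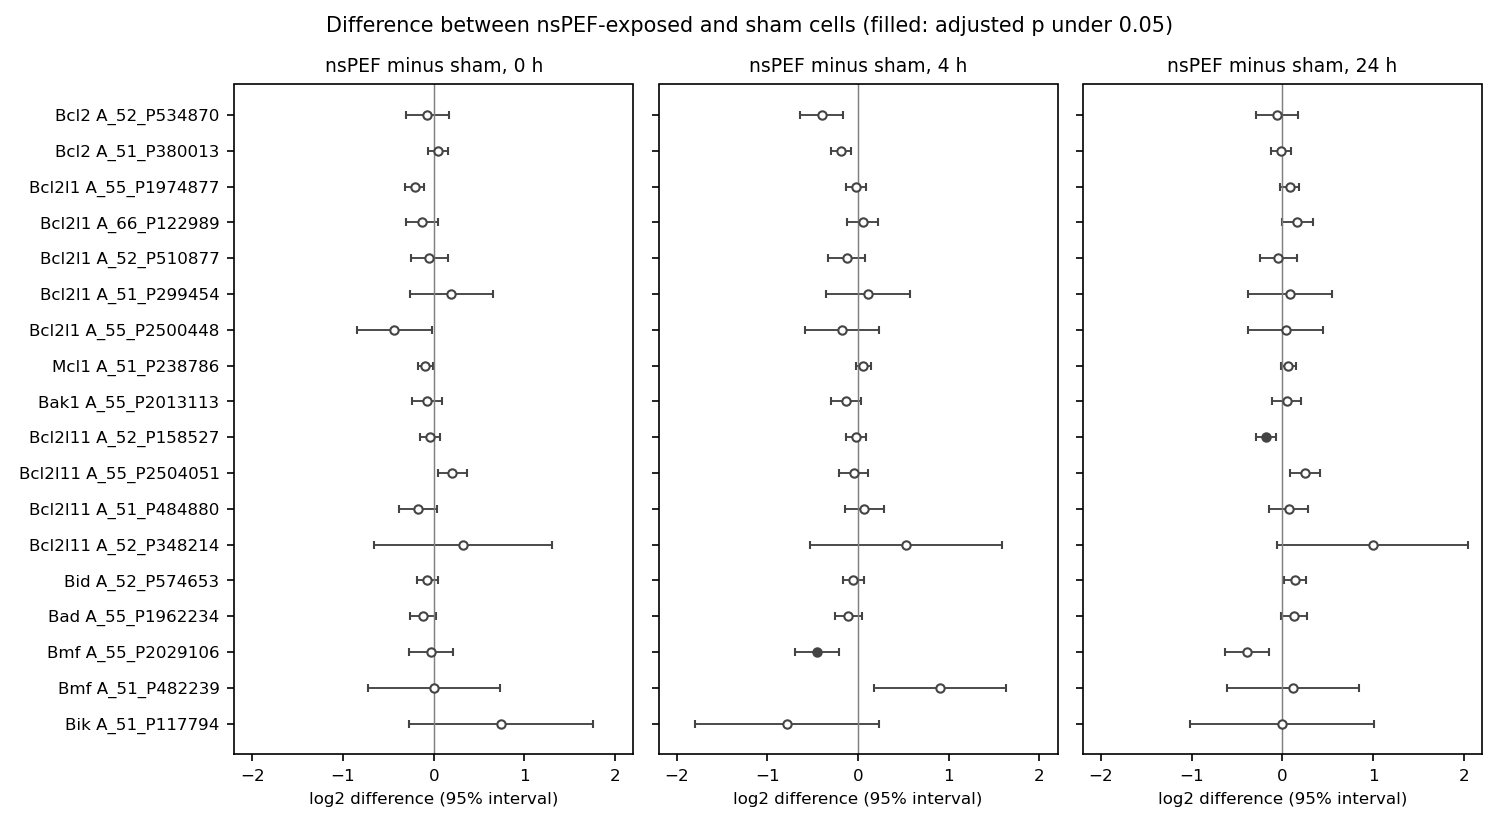
Log2 difference with 95% confidence interval between nsPEF and sham arrays for each tested member probe at 0, 4 and 24 h (limma, 4 arrays a group, 3 for Bcl2l11 probe A_52_P348214 in E4 and E24). Filled points passed an adjusted p of 0.05, which were Bmf at 4 h (-0.46) and Bcl2l11 at 24 h (-0.19), both below 0, and most other intervals include 0. The Bik probe was tested only because of S4.

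Genes whose signals followed those of the changing members most closely were ranked by Pearson correlation over the 24 arrays. The candidates were 17905 to 17910 probes with a gene symbol that were well above background on every array. The correlations are descriptions with no test, since a large share of genes changed with time and arrays of a slide share a time point. For Bmf the first genes were Zmym3, Hunk and Nemp2 (r = 0.995 for each). For Bid they were Nop16 (0.997), Rrp12 (0.997) and Nsun2 (0.996), for Mcl1 they included Timm9 and Bin1 (0.995 each), and for Bad Nrtn (0.989), Ift46 (0.988) and Pold2 (0.987). Those of Bcl2 probe A_52_P534870 were Rad51ap1 (0.982), Ppip5k1 (0.980) and Sfxn5 (0.980). Among the members, Mcl1 and Bid had r = 0.98, and Bmf had r = -0.98 with both.

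The other genes of the pathway were taken as 61 listed genes, of which 56 could be tested, with 1 probe a gene. From 0 to 4 h in sham cells 17 were higher and 24 lower, and from 0 to 24 h 14 and 18. The counts at 4 h include Bcl2l14, which passed the filter only through S4 and E4. In nsPEF cells the counts were 18 and 29 at 4 h and 15 and 19 at 24 h. They are to be read against the shares of all probes given above for these comparisons. Those shares count every tested probe, while the lists use the brightest probe of each gene.

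Among the other Bcl2 family genes 5 of 11 were higher and 3 lower at 4 h in sham cells. Of all tested probes 29% were higher and 30.3% lower. The higher genes include Bcl2l14, whose call is not a result, since it passed the filter only where it is bright. Bcl2l15, a little studied family member, rose by 3.36 ± 0.081 (SE; adjusted p = 1.32e-17) with probe A_51_P309307. A second Bcl2l15 probe was not well above background in S0 and gave at least 23.9-fold higher signal in S4, the bound being set against the dimmest probes still measured. Bcl2l14 was likewise below that limit in S0 and at least 4.45-fold higher in S4. Both passed the filter only through S4 and E4, where they are bright, so no test is given for them. Bcl2l2, a pro-survival relative of Bcl2, rose by 1.31 ± 0.12 (SE; adjusted p = 4.69e-09), and Bbc3, the BH3-only gene for PUMA, changed by -0.93 ± 0.074 (SE; adjusted p = 9.09e-10).

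The next counts are also for sham cells from 0 to 4 h, where 29% of all tested probes were higher and 30.3% lower. Of the apoptosome and caspase genes 1 of 7 was higher and 5 lower, among them Casp9 (-0.60, adjusted p = 5.75e-09). Of the inhibitors of apoptosis and their antagonists 1 of 6 was higher and 4 lower, with Birc2 at -1.18 (adjusted p = 1.79e-09), Birc3 at -0.58 (adjusted p = 0.0136), Birc5 at -0.54 (adjusted p = 2e-08) and Htra2 at -0.37 (adjusted p = 2.2e-06). The death receptor arm, which leads to the cleavage of Bid, had 3 of 8 higher and 3 lower, with Tnfrsf10b at 0.81 (adjusted p = 7.17e-11), Cflar at 0.81 (adjusted p = 7.73e-08), Ripk1 at 0.41 (adjusted p = 0.000916) and Fas at -0.69 (adjusted p = 2.3e-09). Partners and turnover factors of the family proteins had 6 of 13 higher and 2 lower, among them Fbxw7, which marks Mcl1 protein for degradation (0.95, adjusted p = 4.06e-10), the calcium channel Itpr1 (-1.14, adjusted p = 3.82e-12) and the adaptor gene Ywhaz (0.55, adjusted p = 3.33e-09).

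Transcription factors known to act on family genes had 1 of 11 higher and 7 lower at 4 h in sham cells, against 29% and 30.3% of all tested probes. Jun, a subunit of AP-1, was lower by far at -3.79 (adjusted p = 7.76e-22), E2f1 was at -1.12 (adjusted p = 2.12e-12) and Foxo3, known to drive Bcl2l11 and Bbc3, at -1.02 (adjusted p = 3.82e-06), while Myc was at 0.95 (adjusted p = 1.14e-11). Markers of other cell types also differed between the time points. The summed level of the 3 epithelial markers Epcam, Krt8 and Krt18, relative to the 75th percentile, ranged from 1.22 to 1.40 in S0, from 4.51 to 5.07 in S4 and from 1.22 to 1.43 in S24. Nearly all of it was Krt8 and Krt18, since Epcam was well above background on no sham array. That of the 4 Sertoli cell markers, of which Sox9 was well above background on all arrays and 1 on none, was 0.632 to 0.646 in S0, 0.259 to 0.321 in S4 and 0.109 to 0.217 in S24. The sum of the 3 mesenchymal markers was 167 to 179.7 in S0 and 151 to 195 in S4, and that of the 7 Leydig cell markers on the array was 2.95 to 4.24 and 2.44 to 3.08. Within the latter, Star was higher in S4 by 0.91 (adjusted p = 7.4e-06) and Cyp17a1 lower (-0.46, adjusted p = 0.0173). The 3 macrophage markers summed to 1.19 to 1.22 in S0, 0.497 to 0.770 in S4 and 0.507 to 0.633 in S24, nearly all of it Cd68, with Ptprc and Adgre1 well above background on 1 array each. The germ cell pair summed to 0.0839 to 0.111 in S0 and 0.0716 to 0.135 in S4, and the endothelial pair, with Cdh5 on no array, to 0.0756 to 0.0925 and 0.0616 to 0.0663. Their part in the member changes was not tested.

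**Figure D5:**
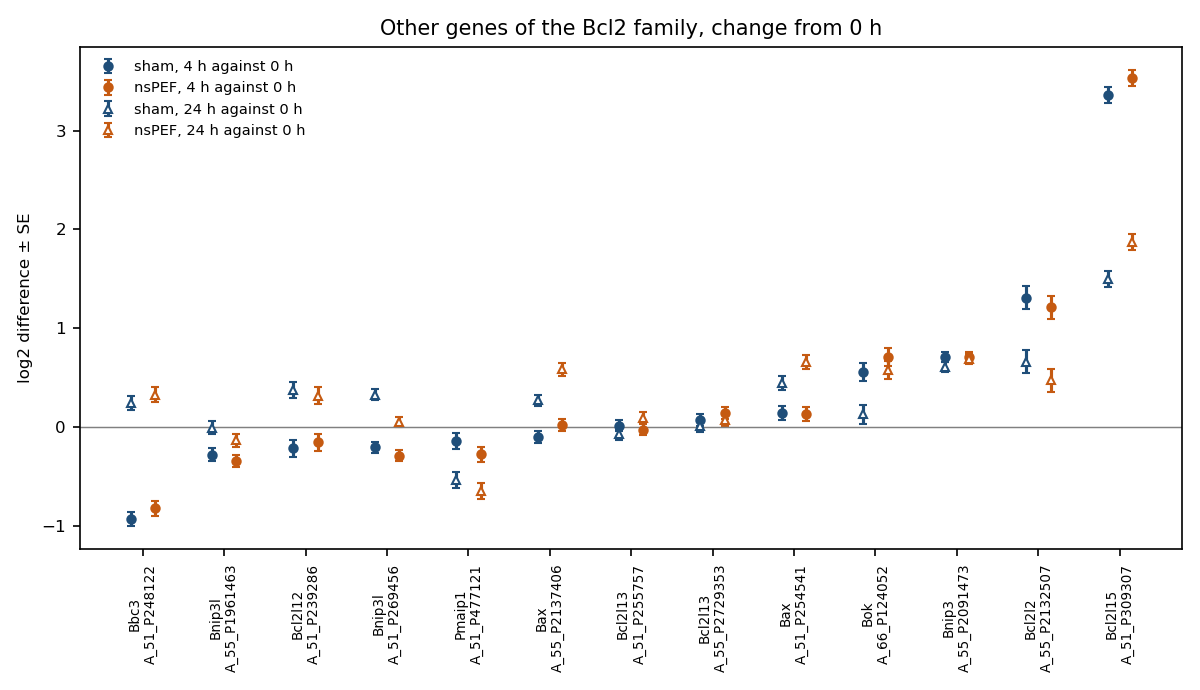
Log2 difference ± SE (75th percentile scaling, limma) of probes of other Bcl2 family genes from 0 to 4 h (circles) and 0 to 24 h (triangles) in sham and nsPEF cells. At 4 h in sham cells Bcl2l15 (3.36) and Bcl2l2 (1.31) lie highest and Bbc3 (-0.93) lowest, and probes with only a bound at 0 h are not drawn.

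Between nsPEF and sham 0 of the 56 genes were called at 0 h by limma and by the plain analysis of variance, with 4 at an unadjusted p under 0.05. Limma called 1 at 4 h and 4 at 24 h. Of all tested probes it called 0.103% at 0 h, 3.48% at 4 h and 5.27% at 24 h. Myc was higher at 4 h by 0.27 ± 0.057 (SE; adjusted p = 0.0154). At 24 h Bax, the second effector, was higher by 0.24 ± 0.063 (SE; adjusted p = 0.0364) with the probe in spot row 16, for which 1 marked spot of E24 was left out, and by 0.17 (adjusted p = 0.133) with the probe in row 98. Bcl2l15 was also higher (0.34, adjusted p = 0.0233), and Birc2 (-0.40, adjusted p = 0.0236) and Fas (-0.22, adjusted p = 0.0348) were lower. Outside these counts, the dimmer Bnip3l probe A_51_P269456 was lower (-0.19, adjusted p = 0.0458). The brighter Bnip3l probe, the one counted, was not called (-0.18, adjusted p = 0.102). Counts of this list varied from 1 to 13 at 4 h and from 0 to 11 at 24 h with the other settings, and from 0 to 2 and 0 to 6 with an array or a replicate number left out.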

How the data were processed

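Gene expression was measured in 24 samples of TM3 cells on one-colour Agilent mouse arrays. The authors scanned the arrays with Feature Extraction 12.0 and deposited spot intensity values, of which the background-subtracted and detrended processed signal was used, and a table of log2 values shifted by the 75th percentile and set to the median of all samples, used as an alternative. From the intensity, log2 values minus each array's 75th percentile over the 62976 spots of an array other than its 3671 control spots were computed, spots marked as not uniform or outlying were left out, and spots of a probe were averaged.

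Probes that the scanner software marked well above background in 2 or more samples of a group were tested with limma 3.58.1 (R 4.3.3), with a mean per group over all 24 arrays and Benjamini-Hochberg adjustment over the 37687 probes, called at 0.05, as the study used a two-way analysis of variance with the same filter. Probes were named through their RefSeq transcript, which gave 34566 probes a symbol. Tested on simulated data drawn for sham 4 h against 0 h over 35694 probes, the fit recovered 52 of 100 probes changed by 0.5 and 68 of 100 changed by 1 (log2), with 5 false calls. No other probes were changed in it, whereas the real comparison called 22350 of 37687. With so few changed probes the adjustment is stricter, so this recovery does not describe the real comparison. The number of arrays limits the precision, and no transcript spot was saturated.

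The members and gene lists were chosen with earlier results of these data known. All members are named. Of each pathway list, genes called between nsPEF and sham are named, and of the rest the 3 with the largest called sham difference from 0 to 4 h, with 1 probe per gene, the brightest. Second probes of Bax and Bcl2l15, and the Bnip3l probes, were added after their values were seen. For each changing member the 3 genes of highest correlation are given. Some genes that these rules pick are not reported here. Promoter sequences are RefSeq's on GRCm38.p6. The array design names mm9, so no other coordinates are given. Same-numbered samples of different groups deviated with correlations of -0.07 to 0.10, against -0.17 to 0.14 for other numbers. No shared deviation was thus seen, which cannot exclude that the numbers pair samples. The study states that tests of a biological replicate used a shared cell suspension. The main fit had no block and would ignore such a pairing. Alternatives covered scaling, background, filters, marked spots, the test, spot rows, a replicate block and arrays left out.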

Additional observations from a re-analysis of the deposited data

Results flagged for a closer look

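In 106 groups of 4 arrays, 5 had a single array far from the other three, about as many as chance gives, since about 1 group in 20 would be marked by the same limit. Bcl2l1 probe A_55_P1974877 read 4.15 on E0 replicate 2 against 4.32 to 4.33 on the rest of E0. Bcl2l11 probe A_55_P2504051 read -0.99 on S4 replicate 1 against -0.94 on the rest of S4, and Bcl2l11 probe A_51_P484880 read -1.87 on E0 replicate 4 against -2.05 to -2.04. Bid read 2.45 on E4 replicate 4 against 2.64 to 2.68, and the dim Bmf probe A_51_P482239 read -3.87 on S24 replicate 2 against -3.39 to -3.33.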

How the results depend on the processing

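Of the 13 member probes called from 0 to 4 h in sham cells, Bik included, 12 kept their call and sign under all 14 other settings and all fits with arrays left out, and of the 13 after nsPEF 11 did under the settings and 11 with arrays left out. For 24 against 0 h these numbers were 3 and 4 of 6 in sham and 7 and 7 of 8 in nsPEF cells, for 24 against 4 h 5 and 8 of 10 in each arm, and for nsPEF against sham 0 of 1 at 4 h and 0 of 1 at 24 h.

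With spike-in scaling (6 control probes), 15 instead of 6 members were called from 0 to 24 h in sham (against 76.3% of all probes) and 14 instead of 8 in nsPEF cells (68.3%), 2 between nsPEF and sham at 4 h (16.7%) and 0 at 24 h (2.23%). Its differences of opposite sign were, in sham cells from 4 to 24 h, 0.22 for Bcl2 A_51_P380013, 0.48, 0.44, 0.15 and 0.53 for Bcl2l1 A_55_P1974877, A_66_P122989, A_52_P510877 and A_51_P299454, 0.52 for Bak1 and 0.34 for Bcl2l11 A_51_P484880. In nsPEF cells from 4 to 24 h they were 0.14 for Bcl2 A_51_P380013, 0.33 and 0.31 for the first pair of these Bcl2l1 probes, 0.25 for Bcl2l11 A_52_P158527 and 0.09 for A_51_P484880. In sham cells from 0 to 24 h they were 0.58 for Bcl2l1 A_55_P2500448, 0.49 for Bcl2l11 A_55_P2504051, 0.38 for Bad and 0.22 for Bmf A_55_P2029106, and in nsPEF cells 0.43 for Bcl2 A_51_P380013, 0.32 for Bcl2l11 A_55_P2504051 and 0.42 for Bad. Bcl2l1 A_55_P1974877 from 4 to 24 h was 0.063 in sham and 0.138 in nsPEF cells with quantile normalization, and Bik from 0 to 4 h in sham cells was -0.19 with normexp. The cause of these reversals was not tested.

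Between nsPEF and sham, members called at 4 h numbered 2 with quantile normalization and with the plain analysis of variance (against 5.91 and 3.96% of all probes), 0 with the percentile over detected probes and with normexp (2.91 and 2.66%), 4 of 20 without the filter (18.3%), 3 with the deposited table (4.7%) and 5 with arrays centred by spot row (8.15%). At 24 h they numbered 0 with quantile normalization, normexp and centring by row (7.16, 1.66 and 5.15%), 4 without the filter (15.8%) and with array weights (19.8%), and 2 with the deposited table (6.29%). At 0 h 1 was called without the filter (5.39%) and with array weights (0.807%). Array weights gave 10 members in sham cells from 0 to 24 h (47.8%) and 3 in the interaction test (7.4%). Centring by row and signal and the percentile over probes, both chosen after seeing the data, gave 0 at 24 h (4.2 and 4.82%). With single arrays or replicate numbers left out, members called ranged from 12 to 14 (sham, 0 to 4 h), 4 to 8 (sham, 0 to 24 h), 8 to 11 (sham, 4 to 24 h), 11 to 14, 7 to 9 and 8 to 10 (the same in nsPEF cells), 0 to 0 at 0 h, 0 to 2 at 4 h and 0 to 3 at 24 h between nsPEF and sham, and 0 to 0 in the interaction test. With the replicate number as a block, the members called were 13, 7, 10, 12, 8 and 10 in the time comparisons and 0, 1 and 1 between nsPEF and sham, where the call at 24 h passed from Bcl2l11 A_52_P158527 (adjusted p = 0.0581) to Bmf A_55_P2029106 (0.0366). The counts of the left-out and block fits are of the 18 tested probes, Bik included. No share of all probes is given for these fits, so their counts describe only how far the numbers move.

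Spike-in scaling shifted the median of all tested probes by 0.15, 0.19 and -0.06 between nsPEF and sham at 0, 4 and 24 h, and normexp by -0.17 from 0 to 4 h in sham cells. Over all probes, 28188 were higher and 554 lower from 0 to 24 h in sham cells with spike-in scaling, against 6821 and 6996, and 8285 higher and 13415 lower from 0 to 4 h with normexp, against 10947 and 11403. Of the tested probes Bik lay near background, which limits it.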
